A study of Mus musculus with 3 samples.

Results

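The neutrophils of the blood described here are the 966 cells that the authors' annotation places in cluster 0 of the blood matrix, out of 2924 blood cells and 10159 cell barcodes across the study's 3 matrices. Blood came by cardiac puncture from female C57Bl/6 mice, 2 to 3 months old, that bore brain metastases of E0771 cells (a mouse breast cancer line) and were sampled about 2 weeks after carotid injection. Both genotypes carried Cx3cr1CreERT, a tamoxifen-inducible Cre recombinase under the Cx3cr1 promoter, and both received tamoxifen and, after a pause of 1 month, diphtheria toxin. The genotype with ROSA-iDTR also carries an inducible toxin receptor and is labelled depleted, and the one without it is labelled control. Each genotype gave 1 hashed blood sample, so neither the spread between mice nor any test between the genotypes can be had, and every difference below describes a pair of samples. The cluster held 537 cells of the control-labelled sample, 39.2% of that sample (95% exact interval 36.6 to 41.8%), and 429 of the depleted-labelled sample, 27.6% (25.4 to 29.9%). These intervals, like the others given here for shares of cells, cover counting error only.

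Neutrophils are short-lived phagocytes that the bone marrow releases into the blood. Their granule proteins are made in a fixed order during maturation: primary granule enzymes in promyelocytes, secondary granule proteins in myelocytes, and tertiary granule proteins later, after which the genes for the earlier granules are switched off. Circulating neutrophils also respond to type I interferon, which induces a shared set of antiviral genes through factors that bind the interferon-stimulated response element.

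Cells were assigned to a mouse by short oligonucleotides on antibodies, and to surface gates by further tags of the same kind. The tags that carry the comparison and the gate below were the following, as listed by the authors.
M-HTO-7, on the blood labelled control: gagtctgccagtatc
M-HTO-8, on the blood labelled depleted: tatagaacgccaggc
Ly6G, the antigen that marks mouse neutrophils: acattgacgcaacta
Ly6C, on neutrophils and classical monocytes: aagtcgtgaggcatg
CD11b, on myeloid cells: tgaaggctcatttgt

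Neutrophils gave few transcripts per cell. The median was 3054 raw UMIs and 1169 genes in the control-labelled sample and 2898 raw UMIs and 1115 genes in the depleted-labelled sample, against 11542 and 11796 raw UMIs in the classical monocyte-like cells. The deposited values are UMIs corrected to a common depth, and the correction raised the total of 94.6% of the neutrophils, to a median of 4505 and 4496. Cx3cr1, whose promoter drives the Cre, differed between the samples elsewhere in the blood. It was at 0.29 corrected UMIs per 10000 (CP10k) in the 95 nonclassical monocyte-like cells labelled control and at 3.64 in the 386 labelled depleted. In neutrophils it was near 0 in both, at 0.09 and 0.14 CP10k. The bearing of Cx3cr1 on the labels was not tested, and the labels are used only as names of the samples. Barcodes were also shared between matrices: 74 of the 966 neutrophils (7.66%) carried a barcode that is in a brain matrix too, 53 with the brain with metastases and 28 with the naive brain. All 28 of the latter had the same raw UMI total in both tables, and all 28 were in cluster 7 of the naive brain. The study's 8 hashed samples shared an RNA library, so those 28 are read here as the same droplets in both matrices.

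The cluster's leading genes were those of neutrophils. S100a8 and S100a9, the subunits of the antimicrobial calprotectin, were at 762 and 1224 CP10k in the control-labelled sample and at 730 and 1110 CP10k in the depleted-labelled sample. Both samples were far above the rest of the blood. Over all other blood cells they were at 24.4 and 37.1 CP10k. Retnlg, a secreted resistin-like protein of granulocytes, was at 131 and 200 CP10k in the samples labelled control and depleted, against 6.36 in other blood cells. The G-CSF receptor gene Csf3r was at 26.8 and 25.8 CP10k and the chemokine receptor gene Cxcr2 at 18.6 and 18.7 CP10k, against 1.73 and 0.90 in other blood cells. The clustering used these genes, so their excess is a description of the cluster and no test.

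**Figure D1:**
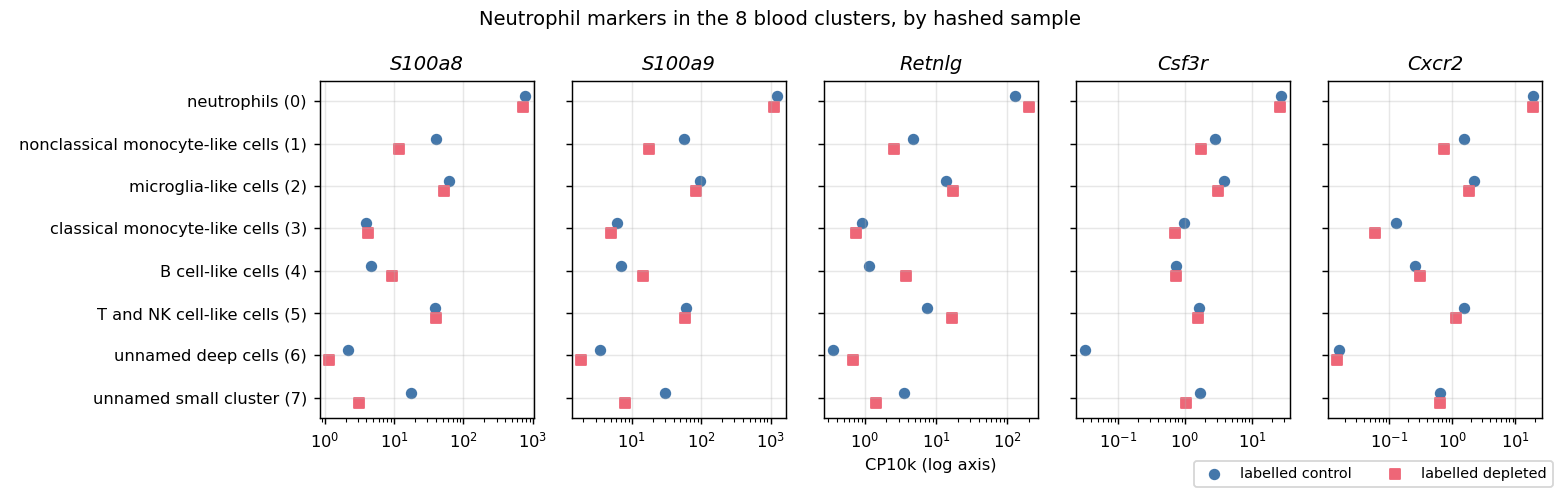
Levels of 5 neutrophil markers (CP10k, log axis) in the 8 blood clusters, circles for the control-labelled sample and squares for the depleted-labelled sample. Neutrophils stand apart for every marker, with Cxcr2 at 18.6 and 18.7 CP10k. A level of 0 has no place on the log axis and is not drawn.

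Among genes above the minimum level, 13.9% were over 2 fold higher and 39.4% over 2 fold lower in neutrophils than in the other blood cells, with a median log2 ratio of -0.58. The 10 furthest above them were S100a9, S100a8, Retnlg, Stfa1, Stfa2l1, Cxcr2, Lrg1, Ifitm1, Wfdc21 and Mmp9. Stfa1 and Stfa2l1, cysteine protease inhibitors of the stefin A family, were at 7.45 and 22.2 CP10k over the cluster, against 0.21 and 0.94 in other blood cells. These stefin genes lie in a family of near-identical copies, so reads may have been split between them. Mmp9, the gelatinase of tertiary granules, was at 15.8 CP10k against 0.92. Cybb, the catalytic subunit of the phagocyte oxidase, was lower in neutrophils than elsewhere, at 1.24 and 1.92 CP10k against 9.94.

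Markers of lymphocytes were at or near 0, and those of other myeloid cells were low but present. The 7 B cell genes summed to 0.09 CP10k in the control-labelled sample and 0.07 in the depleted-labelled sample, with Ms4a1 at 0 in both. The 9 T cell genes summed to 0.31 and 0.35 and the 8 NK cell genes to 0.16 and 0.17, with Ncr1, Eomes and Klra8 at 0. Classical monocyte genes summed to 3.73 and 4.27 and nonclassical monocyte genes to 4.90 and 5.72 CP10k, most of the latter Itgal, an integrin chain of many leukocytes. Microglia genes summed to 3.98 and 4.69 and dendritic cell genes to 2.81 and 3.49 CP10k. A microglia gene had a UMI in 30.4% and 34.0% of the thinned neutrophils, and the part of RNA from outside the cells in this was not tested. By surface tags, 807 of the 966 cells (83.5%, 81.0 to 85.8%) were in the authors' CD11b+ Ly6C+ Ly6G+ gate. The other cells were mostly in the B220+ gate (41 cells), the Ly6C-low gate (39) and the CD3+ gate (36). Those in the B220+ gate had S100a8 at 755 CP10k and B cell genes summing to 0, and those in the CD3+ gate had S100a8 at 738 CP10k and T cell genes summing to 0.37. The 14 cells in the NK1.1+ gate stood apart, with nonclassical monocyte genes at 19.1 CP10k against 4.87 in the Ly6C+ Ly6G+ gate, Cxcr2 at 7.57 against 18.7 and Csf3r at 14.0 against 27.0. Ly6g RNA itself, the gene of the gating antigen, was low, at 1.14 and 0.84 CP10k.

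The granule genes differed by class: primary granule genes were nearly silent, while tertiary granule genes and part of the secondary ones were found in most cells. Of the primary class 6 genes, among them Mpo, Elane, Prtn3 and Ctsg, the enzymes of azurophil granules, summed to 0.13 and 0.18 CP10k, and none reached the minimum level of 0.5. Proliferation genes were as low, with Mki67 at 0.05 and 0.16 CP10k and Top2a at 0.14 and 0.17. Of the 15 cell cycle genes, Hmgb2 and H2afz alone passed the minimum. Tertiary granule genes were present in both samples: Mmp9 was at 15.1 and 16.7 CP10k, Mmp8, the neutrophil collagenase, at 4.89 and 5.69, and Itgam, the CD11b gene, at 3.52 and 3.72. Of the 13 late maturation genes all were measured, and their sum was 443 and 456 CP10k. These genes are not particular to neutrophils. In other named clusters they summed to from 89.4 CP10k (B cell-like cells labelled depleted) to 237 (microglia-like cells labelled control). Il1b, the inflammatory cytokine, was at 44.5 and 53.9 CP10k, Ccl6, a myeloid chemokine, at 31.2 and 34.5, and Wfdc17, a secreted protease-inhibitor-like protein, at 40.9 and 33.2.

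Secondary granule genes divided into a group spread over many cells and a group held by very few. Lcn2, the siderophore-binding lipocalin, was at 20.7 CP10k in the control-labelled sample and 28.3 in the depleted-labelled sample. At 1000 UMIs per cell it was detected in 63.3% and 73.0% of neutrophils, and without thinning in 82.7% and 88.6%. In B cell-like cells, which should lack it, the thinned shares were 3.38% and 2.97%, at medians of 3918 and 4884 raw UMIs per cell. Hp, the gene of haptoglobin, was at 30.3 and 30.7 CP10k, and Wfdc21 at 12.4 in both.

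Camp, Ngp and Ltf were different. They encode cathelicidin, neutrophilic granule protein and lactoferrin, which are packed into secondary granules. Camp was at 4.35 and 7.16 CP10k, Ngp at 4.57 and 7.60 and Ltf at 1.41 and 2.30, yet 810 of the 966 cells (83.9%) had no UMI of any of the 3. Over the cluster, the 20 cells richest in each gene held 97.8% of all Camp UMIs, 92.6% of Ngp and 99.1% of Ltf. Among 2040 genes ranked by variance over mean across the thinned cells, Camp was first at 43.8, Ngp second at 28.2 and Ltf seventh at 11.4.

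Taking 20 summed UMIs of these genes as a limit, chosen after the values were seen, 20 cells (2.07%, 1.27 to 3.18%) were granule-rich. They were 8 of 537 cells labelled control (1.49%, 0.65 to 2.91%) and 12 of 429 labelled depleted (2.80%, 1.45 to 4.84%). The highest held 944 such UMIs, 468 of them Camp, and the lowest 25. Just outside the limit, the next cell had 18. Limits of 10, 50 and 100 UMIs gave 23, 17 and 16 cells. The granule-rich cells were unusual in 3 other measures: their median was 9812 raw UMIs against 2995 in the other neutrophils, 10 of the 20 had a barcode that is also in a brain matrix, and 13 of the 20 were in the CD11b+ Ly6C+ Ly6G+ gate. Their median hashtag count was 310 against 424, and the lowest was 14. The part of depth and of shared barcodes in their number was not tested, and their values are given below with and without the shared ones.

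The granule-rich cells had less of all 13 late maturation genes than the other neutrophils, with log2 ratios from -4.81 for Il1b to -1.11 for Fth1. The share of all genes that were lower in the granule-rich cells is not given here, so the 13 of 13 has no background. Il1b was at 1.69 CP10k in them against 49.9 in the other neutrophils, and 14 of the 20 had no Il1b UMI, while 99.4% of the other cells had one. Il1b was at 0.91 CP10k in the 10 granule-rich cells whose barcode is in the blood matrix alone. Fth1, a ferritin chain, was at 41.6 against 90.2 CP10k and Msrb1, a methionine sulfoxide reductase, at 12 against 40.5. Fgl2, a secreted fibrinogen-like protein that is not on the late list, was at 0.09 against 7.70 CP10k. Ccl6 was at 3.28 against 33.4 CP10k and Csf3r at 2.84 against 27.0. Cxcr2, which draws mature neutrophils to chemokines, was at 4.53 against 19.1 CP10k. S100a8, by contrast, was at 1165 CP10k in the granule-rich cells and 737 in the others.

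Besides the genes that chose them, the granule-rich cells had more of several other genes of granule formation. Hp, of the secondary granule list, went the other way, at 19.7 against 30.8 CP10k. Lcn2 was at 112 against 21.7 CP10k and Mmp8 at 26.8 against 4.67. Cd177, a surface protein stored in secondary granules, was at 11.9 against 0.70 CP10k and was detected in all 20. Itgb2l, an integrin chain of maturing granulocytes, was at 3.11 against 0.06, and Ly6g at 7.90 against 0.83 CP10k. Cebpe, the transcription factor that drives secondary granule genes, had a UMI in 10 of the 20 cells and in 5.39% of the others. Detection of Cd177 and Cebpe is given without thinning, and the granule-rich cells had more raw UMIs. The 10 genes furthest above the other neutrophils, chosen like those below them after their values were seen, were the choosing genes, Adpgk, Serpinb1a, Itgb2l, F13a1, Cd177, Chil3 and Thbs1. F13a1, a gene of monocytes and platelets, was at 2.57 CP10k but came from 2 cells, and it was at 0 in the cells with unshared barcodes. Thbs1, the matrix protein thrombospondin, was at 2.48 CP10k and at 0.37 in the cells with unshared barcodes. Elane, Mpo, Top2a and Mki67 were at 0 in all 20 cells, but not every primary granule or proliferation gene was. Prtn3 was at 0.62 against 0.05 CP10k, from 2 cells, and at 0 in the cells with unshared barcodes. Pcna and Ccnb2 were at 0.09 CP10k, against 0.04 and 0.02, each with a UMI in 1 cell. In the cells with unshared barcodes Lcn2 was at 123, Mmp8 at 28 and Cd177 at 13.2 CP10k.

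**Figure D2:**
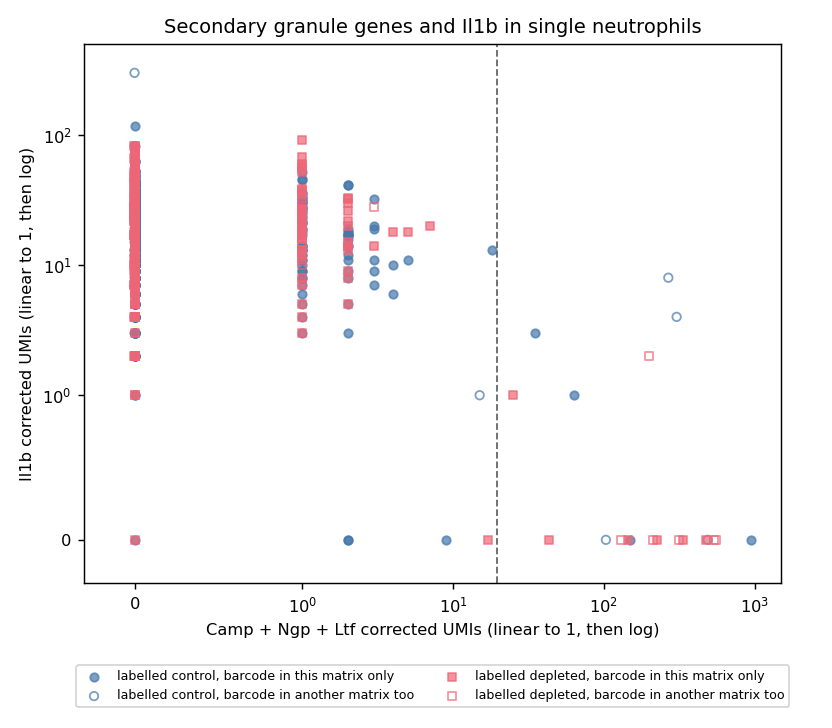
Each point is 1 neutrophil: summed corrected UMIs of Camp, Ngp and Ltf (x) against Il1b (y), both axes linear to 1 and then logarithmic. Circles are the control-labelled sample and squares the depleted-labelled sample, open where the barcode is in another matrix too, and the dashed line marks the limit of 20 UMIs. The 20 cells to its right have 8 Il1b UMIs or fewer.

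Other genes also varied more than most among neutrophils. Retnlg ranged from 0 to 330 UMIs per cell in the control-labelled sample, with a median of 42 and quartiles of 20 and 80. In the depleted-labelled sample the range was 0 to 761, the median 65 and the quartiles 27 and 126. S100a8 and S100a9 together took a median of 20.3% of a cell's corrected UMIs in the control-labelled sample and 18.3% in the depleted-labelled sample. Their spread within a sample was wide, from 4.47% at the 5th percentile to 32.6% at the 95th in the control-labelled sample. Stfa1, Stfa2 and BC100530, all of the stefin A family, were at 10 or more summed UMIs in 74 of 537 cells (13.8%, 11 to 17%) and 51 of 429 (11.9%, 8.98 to 15.3%), while 394 and 316 cells had none.

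Cxcl2, a chemokine that attracts neutrophils, was concentrated in 9 cells with 12 to 275 UMIs, 5 labelled control and 4 labelled depleted. No other neutrophil had over 8. In these 9 cells Il1b was at 165 CP10k against 47.4 elsewhere, Nfkbia, the inhibitor of NF-kappa-B, at 61.5 against 4.92, and Cd14, a lipopolysaccharide co-receptor, at 18.5 against 1.14. Ccrl2, a chemerin-binding receptor, was at 21.5 against 0.53 CP10k. Their median was 5502 raw UMIs and 5 of the 9 had a barcode shared with a brain matrix. These cells were chosen after their values were seen, and the part of the shared barcodes was not tested.

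Between the samples, most neutrophil genes lay close together. Of 2316 genes at 0.5 CP10k or more in either sample, 0.561% were over 2 fold lower and 0.0864% over 2 fold higher in the depleted-labelled sample, with a median log2 ratio of 0.03. Ratios here are log2 of depleted over control after adding 0.1 CP10k. The 2 genes past 2 fold higher were Chil3 and Asnsd1. The type I interferon core and abundant interferon-induced lists held 26 and 5 of the 2316 measured genes. Of the 13 past 2 fold lower, 9 were members of these lists. The other 4 were Hist1h1c and Hist1h2bc, linker and core histones, Plin2, a coat protein of lipid droplets, and 1 unnamed transcript. Hist1h2bc was at 4.09 CP10k labelled control and 1.83 labelled depleted, and Hist1h1c at 2.18 and 0.81.

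**Figure D3:**
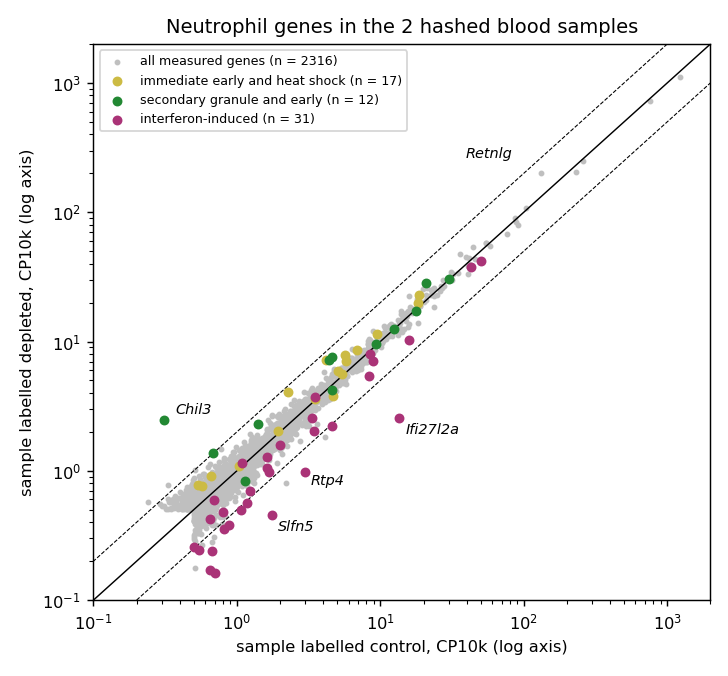
Level of each of 2316 measured genes in the neutrophils labelled control (x) and labelled depleted (y), in CP10k on log axes. The solid line is equality and dashed lines are 2 fold. Most interferon-induced genes lie below the line, with Ifi27l2a at 13.6 and 2.56 CP10k, and Chil3 lies above it.

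The type I interferon genes were lower as a group in the depleted-labelled sample. Of 49 core genes 26 passed the minimum level, and 25 of the 26 were lower, where 44.3% of all measured genes were. The median log2 ratio was -0.73, against 0.03 over all genes. Past 2 fold lower were 8 of the 26, and none was past 2 fold higher. The exception to the direction was Bst2, the antiviral tetherin, at 1.09 and 1.15 CP10k. The list was chosen with earlier results of these data known, so these counts are a description and no test.

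Ifi27l2a, a small mitochondrial interferon-induced protein, was at 13.6 CP10k in the control-labelled sample and 2.56 in the depleted-labelled sample, a log2 ratio of -2.36. It lay at 12.7 to 14.9 CP10k in each of 4 groups of the cells labelled control by raw depth and at 1.47 to 5.01 in those labelled depleted. In single cells its median was 2 UMIs and 0. After thinning it was detected in 44.3% (40.1 to 48.6%) and 16.1% (12.7 to 19.9%) of neutrophils, and without thinning in 66.9% and 45.7%. B cell-like cells were at 41.9% and 23.8% after thinning. At 10 UMIs or more were 115 of 537 cells labelled control and 12 of 429 labelled depleted. Slfn5, of the Schlafen family, was at 1.76 and 0.46 CP10k. Rtp4, an interferon-induced chaperone of receptors, was at 2.98 and 0.98. Oasl2, an oligoadenylate-synthetase-like protein, was at 4.57 and 2.21, and Irf7, the transcription factor that amplifies type I interferon, at 1.17 and 0.56 CP10k.

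The Ifit genes, whose proteins bind foreign RNA, were low in both samples and lower in the one labelled depleted. Ifit3 was at 0.70 and 0.16 CP10k and Ifit1 at 0.81 and 0.35. Ifit3b, at 0.65 and 0.17, is a close copy of Ifit3, and reads may have been split between them. Isg15, the ubiquitin-like modifier, was at 1.63 and 1.05 CP10k, a log2 ratio of -0.59. Among the abundant Ifitm genes, whose products block viral entry, Ifitm1 was at 42.6 and 38.0 CP10k, Ifitm2 at 50.7 and 41.8 and Ifitm3 at 15.9 and 10.3. Their log2 ratios were -0.16, -0.28 and -0.63. Of the 11 GTPases known from the interferon-gamma response, Gbp2 (0.56 and 0.60 CP10k) and Gbp7 (0.70 and 0.38) passed the minimum. The receptor genes Ifnar1 (0.81 and 0.81 CP10k) and Ifnar2 (0.74 and 0.71) were close in the pair of samples.

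**Figure D4:**
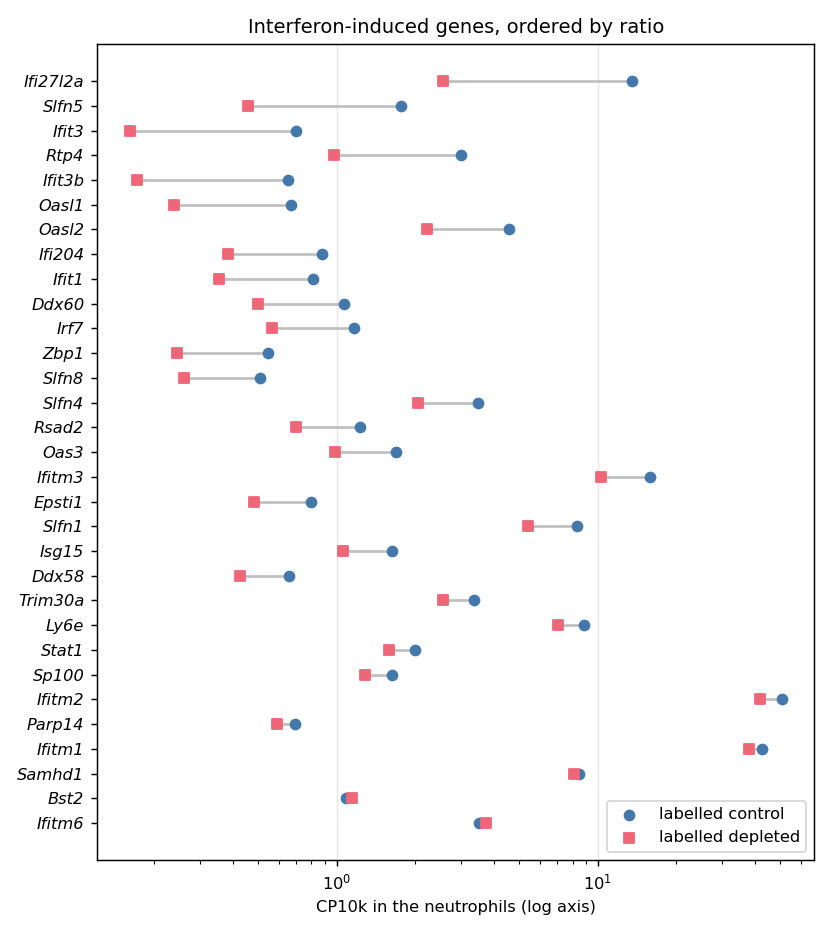
Measured genes of the type I interferon core and abundant interferon-induced lists in the neutrophils, ordered by ratio: level in the control-labelled sample (circles) and labelled depleted (squares), in CP10k on a log axis. Ifi27l2a has the widest gap by ratio, and of these lists Bst2 and Ifitm6 alone are higher in the depleted-labelled sample.

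The same lists were compared in the other blood clusters, which come from the same pair of samples and are not independent of it. The core list's median log2 ratio was -0.79 in the nonclassical monocyte-like cells (22 of 24 genes lower, where 42.8% of all measured genes were) and -0.78 in the classical monocyte-like cells (35 of 35 lower, where 59.1% of all were). It was -0.39 in the B cell-like cells (16 of 16 lower, where 44.7% of all were). In the T and NK cell-like cells it was -0.07 and in the microglia-like cells 0.00. Barcodes also in another matrix were 49.0% in the former and 82.7% in the latter. They were 7.66% in neutrophils and 12.1%, 7.89% and 12.4% in the nonclassical monocyte-like, classical monocyte-like and B cell-like cells. The part of shared barcodes in these medians was not tested. The abundant interferon-induced list had medians of -0.68 in the T and NK cell-like cells and -0.12 in the microglia-like cells. It was at -0.28 in neutrophils and at -0.86, -0.35 and -0.68 in the nonclassical monocyte-like, classical monocyte-like and B cell-like cells. Ifi27l2a was at 32.7 and 11.5 CP10k in the classical monocyte-like cells and at 15.6 and 13.7 in the microglia-like cells. Whether the ratio in neutrophils differs from that in another cluster was not tested, since each rests on 1 sample a side.

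The promoters of these genes were searched for GAAANNGAAA, a core of the interferon-stimulated response element, on both strands and over 300 bases from 250 before to 50 after the start, with overlapping matches counted. RefSeq promoters (GRCm38.p6) matched 38 of the 49 core genes by symbol, and 21 of the 38 (55.3%) held the motif, against 3.99% of all 27025 genes with a promoter there. Of 11 secondary granule genes with a promoter none held it, which is near that share over all genes. The motif was in 9 of 10 interferon-gamma GTPase genes with a promoter (90%) and in 2 of 4 abundant interferon-induced genes. Among the 20 measured core genes with a promoter, the 12 with the motif had a median log2 ratio of -0.74 and the 8 without it -0.68. A match describes letters and shows no binding. Below are 82 bases around a match for the Schlafen and Ifit genes past 2 fold lower and for Isg15 and Rsad2, which are among the genes most correlated with the list over cells. They are written 5′ to 3′ along the gene's strand with every match in capitals, overlapping ones joined. Slfn5 and Rsad2 hold 1 match, Ifit3 and Ifit1 hold 2 and Isg15 holds 3.
Slfn5, chr11:82951911-82951992, plus strand: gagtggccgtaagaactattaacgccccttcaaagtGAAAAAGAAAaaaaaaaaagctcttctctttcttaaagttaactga
Ifit3, chr19:34583337-34583418, plus strand: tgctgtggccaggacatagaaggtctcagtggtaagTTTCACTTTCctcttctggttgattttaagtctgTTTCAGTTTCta
Ifit1, chr19:34640749-34640830, plus strand: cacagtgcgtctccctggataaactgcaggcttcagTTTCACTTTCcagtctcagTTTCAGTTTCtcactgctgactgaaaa
Isg15, chr4:156200851-156200932, minus strand: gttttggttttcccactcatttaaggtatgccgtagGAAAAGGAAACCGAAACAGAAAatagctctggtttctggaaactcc
Rsad2, chr12:26456527-26456608, minus strand: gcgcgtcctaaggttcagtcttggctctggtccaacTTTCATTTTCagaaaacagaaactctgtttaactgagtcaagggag

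The 82 bases around the match in Ifit3b were the same as in Ifit3. The first match began 155 bases before the start of Slfn5, 156 before Ifit3, 104 before Ifit1, 78 before Isg15 and 120 before Rsad2. The promoters of Oasl1, Oasl2 and Irf7 held no match in this window. For Ifi27l2a, Rtp4 and Ifi204, also past 2 fold lower, no promoter was matched by symbol, so none was searched.

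Interferon genes differed between cells within each sample as well. After thinning to 1000 UMIs, the core list summed to a median of 5 UMIs per cell in the control-labelled sample (quartiles 3 and 8, highest 33) and 3 in the depleted-labelled sample (quartiles 2 and 5, highest 63). At least 3 core genes were detected in 401 of 537 cells labelled control (74.7%, 70.8 to 78.3%) and in 234 of 429 labelled depleted (54.5%, 49.7 to 59.3%). Without thinning nearly all cells passed, 100% and 98.6%. In the B cell-like cells the thinned shares were 58.8% and 50.5%. Near this limit, 77 and 102 neutrophils had exactly 2 genes and 106 and 89 exactly 3, so the share is a point on a range and no class of cells.

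A few cells stood far above the rest. Of the 20 neutrophils with the most core-list UMIs without thinning, 17 were labelled control and 3 labelled depleted. Over all 966 neutrophils 537 were labelled control. Among the 20, 4 had a barcode that is in another matrix too, including a depleted-labelled cell with 19529 raw UMIs. The highest of all was labelled depleted, with 307 core UMIs over 29 genes, of them 64 Rsad2 and 38 Isg15, and no Ifi27l2a. It had 4471 raw UMIs, 441 S100a8 UMIs and no microglia gene, and its barcode is in the blood matrix alone. Rsad2, the antiviral viperin, was at 1.23 and 0.70 CP10k with a log2 ratio of -0.73, which became -1.50 without that cell.

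**Figure D5:**
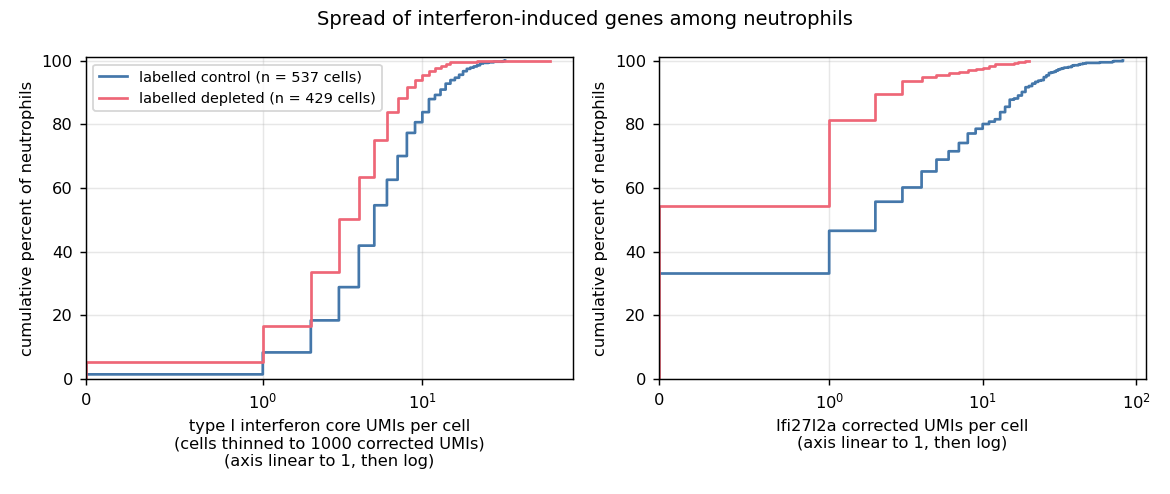
Cumulative percent of neutrophils (y) by type I interferon core UMIs per cell after thinning (left) and by Ifi27l2a UMIs per cell (right), x axes linear to 1 and then logarithmic. The curve of the 537 cells labelled control lies to the right over most of the range, with medians of 5 and 3 UMIs on the left.

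Across cells, core interferon genes varied together weakly. With each gene left out of the sum, the highest rank correlations with the core list were for Rsad2 (0.32 in 537 cells labelled control, 0.20 in 429 labelled depleted), Slfn5 (0.33 and 0.16), Ifitm3 (0.24 and 0.19) and Isg15 (0.25 and 0.18). The lowest were for S100a8 (-0.23 and -0.24) and S100a9 (-0.24 and -0.22). All genes of a thinned cell share 1000 UMIs, and S100a8 and S100a9 take a large part of them. The core sum was almost unrelated to the secondary granule sum (-0.07 and -0.11) and to the late maturation sum (0.01 and -0.03). Ifitm3 is on the abundant interferon-induced list and is not a core gene. The sum of that abundant list had a rank correlation with the core sum of 0.14 labelled control and -0.02 labelled depleted.

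The secondary granule sum and the late maturation sum were also almost unrelated over cells (-0.02 in both samples). S100a8 went with Retnlg (0.51 and 0.50), Wfdc21 (0.39 and 0.34), Lcn2 (0.32 and 0.35) and Mmp8 (0.32 and 0.26), and more weakly with the late gene Ccl6 (0.15 and 0.22). It ran against Il1b (-0.25 in both) and Csf3r (-0.23 and -0.19), and was almost unrelated to Cxcr2 (-0.07 and -0.06). Wfdc17 went with Ifitm1 (0.21 and 0.25). These coefficients describe cells of 1 sample each, which share their library and their fixed total.

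The secondary granule list gave a median ratio that depended on which cells were counted. Of its 15 genes 12 were measured, and 8 were higher and 4 lower, where 55.7% of all measured genes were higher, so the count was near the background. The median log2 ratio was 0.25. It was 0.03 without the granule-rich cells, over 9 measured genes, 0.07 without the shared barcodes, 0.05 in the surface gate, 0.07 in cells of both gate and cluster, and 0.06 without the shallowest and deepest cells. Camp had a log2 ratio of 0.71, which was -0.33 without the shared barcodes. In the thinned cells a UMI of Camp, Ngp, Ltf, Lcn2 or Chil3 was found in 65.4% (61.2 to 69.4%) of neutrophils labelled control and 76.0% (71.7 to 80.0%) of those labelled depleted. Without thinning the shares were 86.4% and 91.1%.

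Chil3, a chitinase-like secreted protein, had the highest ratio of any measured gene, at 0.31 CP10k labelled control and 2.48 labelled depleted (log2 ratio 2.66). It was found in 31 of 537 and 117 of 429 cells. After thinning it was in 2.23% (1.16 to 3.87%) and 13.1% (10.0 to 16.6%) of neutrophils, and in 2.03% and 0.99% of B cell-like cells, although the level there was 0.08 and 1.23 CP10k. The classical monocyte-like cells, which had far more of it, were at 34.3 and 56.2 CP10k. Without the 20 granule-rich cells its log2 ratio was 2.79. Retnlg, at 131 and 200 CP10k, was also higher in the B cell-like cells of the depleted-labelled sample, at 1.14 and 3.79 CP10k, as was S100a8, at 4.63 and 9.32. The part of RNA from outside the cells was not tested.

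Immediate early genes were slightly higher in the depleted-labelled sample. Of 20 genes 17 were measured and 16 were higher, where 55.7% of all measured genes were higher. The median log2 ratio was 0.30, against 0.03 over all genes, and none was past 2 fold. Nfkbia was at 4.16 and 7.23 CP10k, Ier3, an early-response survival gene, at 2.27 and 4.06, Zfp36, which destabilises cytokine mRNA, at 5.68 and 7.83, and Junb at 18.5 and 22.9. Socs3, a feedback inhibitor of cytokine receptors, was the exception, at 4.68 and 3.78 CP10k. Other lists were close in the pair: median log2 ratios were 0.06 for late maturation, 0.11 for tertiary granule, 0.00 for homing and ageing, 0.12 for the oxidase, 0.12 for hypoxia and glycolysis and -0.13 for MHC class I genes. Among 27 measured surface receptor genes none was past 1.5 fold. Over all genes 2.07% were past 1.5 fold lower and 1.47% past 1.5 fold higher, so the count was near the background. The suppressive neutrophil genes Arg1 and Nos2 were near 0 in both samples, while Arg2 was at 2.64 and 2.55 CP10k.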

How the data were processed

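The labels' protocols describe RNA from the 10x Genomics 3' assay, with antibody tags and hashtags. Per the submitters' processing notes, Cell Ranger 3.1 and Seurat 3.1.1 were used with mm10. The deposited blood matrix holds natural log values of 1 plus a corrected UMI count: undoing the log gave whole numbers for 100% of values (within 1e-06), and they summed to the annotation's corrected total in all 2924 cells. The authors' annotation gave clusters, gates, hashtag calls and raw count totals per cell, and 55 other annotation columns were not used. Corrected UMIs are not sampled counts, so no count model was run. UMIs were summed per cluster and hashed sample, scaled to 10000 and compared as log2 ratios (pseudocount 0.1, minimum 0.5 CP10k in either sample). Shares of cells used 1000 UMIs drawn per cell, dropping none, with exact Clopper-Pearson 95% intervals. Doublets were not called here. Gene lists and members were chosen with earlier results of these data known. Genes were named from the lists or as the 10 most extreme by ratio, variance over mean or correlation, leaving out mitochondrial, ribosomal, unnamed, haemoglobin, immunoglobulin, T cell receptor and sex-linked genes. Code ran in Python 3.11.15 with numpy 2.4.6 and scipy 1.17.1 and was tested on simulated data.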

Additional observations from a re-analysis of the deposited data

Results flagged for a closer look

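In neutrophils and nonclassical monocyte-like cells, 2 lists had medians of opposite sign between the samples, and these differences were not tested. Immediate early and heat shock genes had a median log2 ratio of depleted over control of 0.30 in neutrophils, with 16 of 17 measured genes higher where 55.7% of all were, and -0.28 in the nonclassical monocyte-like cells, with 14 of 17 lower where 42.8% of all were. Secondary granule and early genes had a median of 0.25 in neutrophils (8 of 12 higher) and -0.53 in the nonclassical monocyte-like cells (5 of 7 lower), counts to be read against the same shares over all genes, to which 8 of 12 is near. In the latter cells S100a8, which belongs to neither list, was at 40.1 CP10k labelled control and 11.9 labelled depleted.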

How the results depend on the processing

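With 1 hashed sample per label, no sample could be left out, and depth limits low genes such as Slfn5, with a UMI in 122 neutrophils labelled control and 30 labelled depleted. No paired analysis was possible with 1 hashed sample per label. The number of genes past 2 fold, 15, became 24 without the 25% of cells with the fewest hashtag counts, 23 without the shallowest and deepest 10% of cells, 5 with a pseudocount of 0.5 and 6 with a minimum level of 2 CP10k. Of the 15 genes, 12 remained without shared barcodes and 8 when the surface gate replaced the cluster. The interferon median was -0.999 without the shallowest and deepest cells and stayed below 0 in all 14 alternatives run on it. Depleted minus control, the share of cells with at least 3 interferon genes was -20.1 percentage points at 1000 UMIs, -14.9 at 500, -8.35 at 2000 and -1.40 without thinning, and the share with a secondary granule UMI was 10.6, 7.30, 8.69 and 4.74. The causes were not tested beyond what thinning itself removes. Alternatives without the 20 granule-rich cells, or without the cell with the most interferon UMIs, were chosen after seeing the data.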

Other observations

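Several surface receptor genes of neutrophils were at like levels in the pair of samples. Ccr1, a chemokine receptor, was at 8.33 CP10k labelled control and 8.27 labelled depleted, Clec4d, a lectin receptor of myeloid cells, at 7.02 and 8.34, Pirb, an inhibitory receptor, at 7.27 and 6.10, and C5ar1, the receptor of complement C5a, at 3.89 and 3.66. Fcgr4, an activating Fc receptor, was further apart by ratio, at 1.31 and 0.88. Slc2a3, a glucose transporter, was at 2.97 and 3.43 CP10k in neutrophils and at 0.23 over the other blood cells. Mxd1, an antagonist of Myc, was at 10.9 and 10.4 against 0.81 in other blood cells, and Il1r2, the decoy receptor of interleukin-1, at 1.39 and 1.83 against 0.18.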
